A study of Mus musculus with 6 samples.

Results

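The genes described here encode the nuclear subunits of the oxidative phosphorylation system in mouse lung ECs (LECs). Complex I takes electrons from NADH and complex II takes them from succinate, both pass them through ubiquinone to complex III, and cytochrome c carries them on to complex IV, which reduces oxygen. The proton gradient that complexes I, III and IV build across the inner membrane of the mitochondrion drives complex V, the ATP synthase. ECs are known to draw much of their ATP from glycolysis, while the respiratory chain of these cells serves redox balance, biosynthesis and signaling. The members were the rows of the expression table whose symbol belongs to the Nduf, Sdh, Uqcr (with *Cyc1*), Cox4 to Cox8 or Atp5 families. Of 82 such rows, 4 whose symbol marks a pseudogene were left out, and *Cox7a1* was left out because its mean was under 1 CPM (counts scaled to the size of the library), with 0.143, 0.0325 and 0.107 CPM in *Atgl* ECKO libraries and 0.101, 0.0720 and 0.0756 CPM in control libraries. The remaining 77 genes, of 12837 genes tested and 20409 gene rows in all, comprised 36 genes of complex I, 4 of complex II, 9 of complex III, 12 of complex IV and 16 of complex V. The 2 members with the lowest means were *Atp5g2* at 1.65 CPM and *Cox6b2* at 2.74 CPM. Subunits encoded by mitochondrial DNA are not analysed here.

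Values came from 3 *Atgl* ECKO and 3 control RNA-Seq libraries of LECs that received no treatment. The *Atgl* ECKO cells came from mice in which a *Cdh5*-Cre transgene, active in endothelium, deletes floxed *Atgl* (also named *Pnpla2*), the gene of the lipase that starts the breakdown of stored triglyceride. The control cells came from mice with the floxed alleles and are described as *Atgl* f/f. All LECs were selected by CD31, immortalized with the middle T antigen and grown in a rich endothelial medium, so they are cultured lines rather than lung endothelium in place, and the sources used here do not give the age of the mice. The labels do not state that replicate libraries stem from separate cultures or mice, so every p-value here reflects only how these samples scatter, and that scatter may be technical.

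*Pnpla2* had 9.97, 9.11 and 9.13 CPM in *Atgl* ECKO LECs, against 27.6, 26.3 and 30.1 CPM in control LECs, which is 33.6% of the control mean (log2 fold change -1.48, SE 0.05, limma adjusted p = 1.84e-12; exact two-sided permutation p = 0.1, the smallest that 3 libraries against 3 allow). By the smallest step between values, 1 CPM rested on 63.2, 61.7 and 65.4 reads in *Atgl* ECKO libraries and on 69.05, 55.6 and 66.3 reads in control libraries, so that the member value with the fewest reads rested on 69 reads. Correlations of log2 values between libraries ran from 0.998 to 0.999 within a genotype and from 0.963 to 0.964 between genotypes. All 11 endothelial markers passed the filter, with *Cdh5* at a mean of 2100 CPM in *Atgl* ECKO LECs and 1985 CPM in control LECs, and 4 were higher, 4 lower and 3 not called. Their log2 fold changes ran from -1.35 for *Vwf* (57.7 CPM in *Atgl* ECKO and 148 CPM in control LECs) to 0.29 for *Pecam1*. *Tek* (-0.53), *Tie1* (-0.33) and *Kdr* (-0.23) were also lower, and *Erg* (0.19), *Nos3* (0.16) and *Cdh5* (0.08) were also higher. Summed markers of lung epithelium (42.3 to 44.7 CPM in *Atgl* ECKO, 18.03 to 19.05 CPM in control), leukocytes (63.6 to 75.1 CPM, against 20.5 to 23.4 CPM in control) and striated muscle or brown fat (34.4 to 43.3 CPM, against 6.06 to 7.02 CPM in control) lay higher in all *Atgl* ECKO libraries, and summed markers of fibroblasts and mural cells lay lower (107 to 127 CPM in *Atgl* ECKO, 158 to 176.9 CPM in control). Few genes of these lists passed the filter, with 3 of 3 higher for epithelium, 1 of 2 for leukocytes, 2 of 2 for striated muscle or brown fat and, for fibroblasts and mural cells, 1 of 2 lower. The sums rested mainly on *Krt18*, *Cd68*, *Acta1* and *Acta2*, whereas *Epcam*, *Cdh1*, *Itgam* and *Col1a2* each averaged under 1 CPM in both genotypes. Some markers went against their sum. *Csf1r* (0.382 CPM in *Atgl* ECKO, 0.564 CPM in control) and *Sftpb* (0.0052 and 0.0581 CPM) had lower means in *Atgl* ECKO. *Pdgfrb* (0.734 and 0.226 CPM) and *Myh11* (1.58 and 1.27 CPM, not called) had higher means. The part of these markers in the results below was not tested. In bulk libraries fewer cells of a type and less RNA of a gene per cell cannot be told apart.

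Subunit genes changed in both directions and by small amounts. A gene is called higher or lower here at a limma adjusted p under 0.05, on log2(CPM + 1), with the adjustment made over all 12837 genes, and a log2 fold change is the *Atgl* ECKO mean less the control mean. By this rule 27 members were higher in *Atgl* ECKO, 18 were lower and 32 were not called. The called share was 58.4% of the members, beside 70.5% of all genes tested, 34.2% of which were higher and 36.2% lower. The median log2 fold change of the members was 0.01, beside -0.01 over all genes. Their median absolute log2 fold change was 0.10, against 0.21 over all genes and 0.20 over those that averaged 5 CPM or more, and the SD of the log2 fold changes was 0.21, against 0.53 over all genes. The groups did not overlap for 46 members, or 59.7%, beside 73.1% of all genes. Only 4 members passed a log2 fold change of 0.5 in either direction, all higher in *Atgl* ECKO (*Cox6b2*, *Cox8a*, *Ndufs8* and *Ndufv1*), beside 16.8% of all genes, and 0 members passed a log2 fold change of 1, which 4.95% of all genes did at an unadjusted p under 0.05 (2.23% higher and 2.72% lower). When each library was left out in turn, 35 of the 45 called members stayed called every time. The number of lower members fell to 11 without *Atgl* ECKO replicate 3 and also to 11 without control replicate 3.

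**Figure D1:**
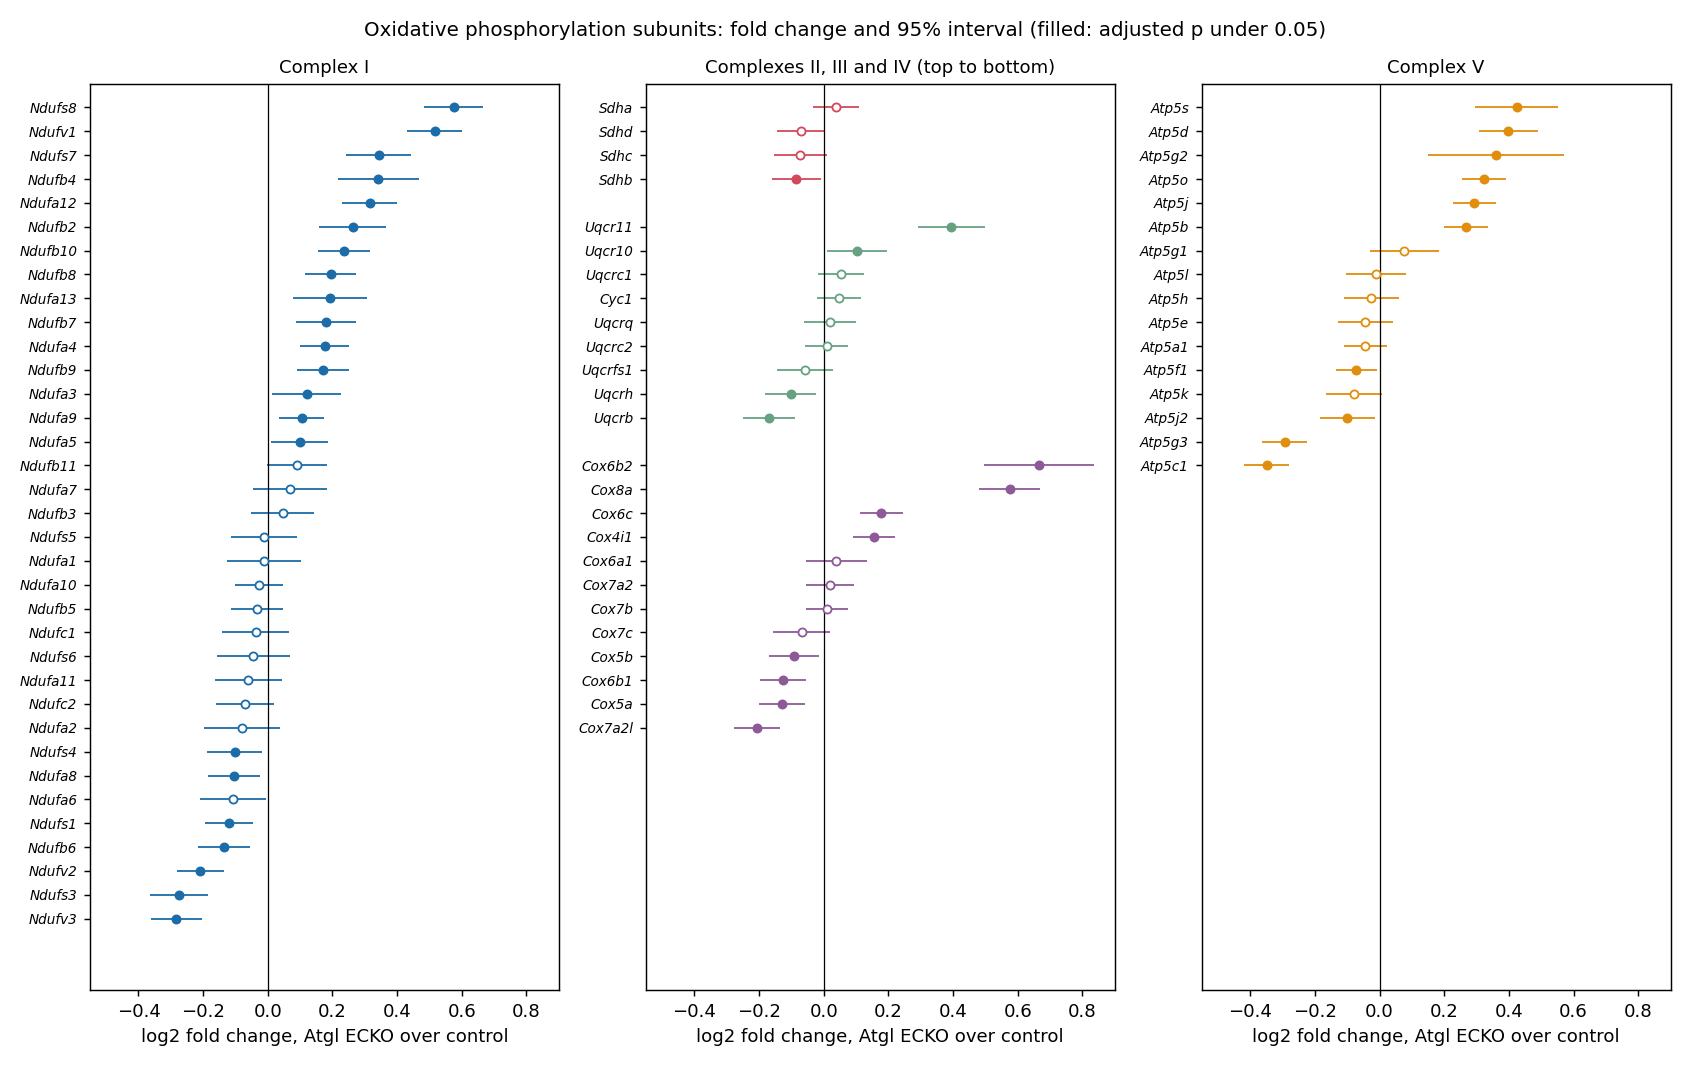
Log2 fold change (*Atgl* ECKO over control, x axis) with its 95% limma interval for 76 subunit genes, ordered by fold change within complexes I to V; filled points had an adjusted p under 0.05 (27 higher, 18 lower) and open points did not (31). Most genes lie within 0.4 of 0, and *Cox6b2*, *Cox8a*, *Ndufs8* and *Ndufv1* stand above 0.5.

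Summed over members, subunit transcripts took a similar part of each library in both genotypes. The 77 genes together had 5221, 5102 and 5008 CPM in *Atgl* ECKO LECs, against 4882, 4764 and 4986 CPM in control LECs, so the *Atgl* ECKO mean was 105% of the control mean and every *Atgl* ECKO library lay above every control library. *Atp5b*, the catalytic beta subunit of ATP synthase, supplied most of that difference. Without it the sums were 4120, 4027 and 3942 CPM in *Atgl* ECKO and 3982, 3889 and 4065 CPM in control LECs, and the groups overlapped. By complex, the *Atgl* ECKO mean was 104% of the control mean for complex I, 98.8% for complex II, 102% for complex III, 104% for complex IV and 107% for complex V, or 98.1% for complex V without *Atp5b*. Such sums are set by the abundant members and are not scaled by transcript length.

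Of the 36 complex I genes, 15 were higher in *Atgl* ECKO, 7 were lower and 14 were not called, at a median log2 fold change of 0.02. The core subunits, which carry the flavin and the iron-sulfur clusters, diverged most. *Ndufs8*, which holds iron-sulfur clusters on the way to ubiquinone, had 28.3, 27.9 and 28.1 CPM in *Atgl* ECKO, against 18.3, 17.9 and 19.5 CPM in control LECs (log2 fold change 0.57, SE 0.04, limma adjusted p = 8.61e-09). *Ndufv1*, the flavoprotein that binds NADH, had 66.9, 64.3 and 61.8 CPM in *Atgl* ECKO, against 44.0, 43.2 and 46.9 CPM in control LECs (log2 fold change 0.52, SE 0.04, adjusted p = 1.33e-08). *Ndufs7*, which carries the last cluster before ubiquinone, had 21.7, 21.02 and 20.5 CPM in *Atgl* ECKO, against 16.1, 15.8 and 17.3 CPM in control LECs (log2 fold change 0.34, SE 0.05, adjusted p = 8.93e-06). In these 3 genes every *Atgl* ECKO library lay above every control library. Partners of these subunits moved the other way. *Ndufs3*, a core subunit of the peripheral arm, had 25.6, 25.4 and 24.3 CPM in *Atgl* ECKO, against 32.1, 29.5 and 30.2 CPM in control LECs (log2 fold change -0.27, SE 0.04, adjusted p = 3.06e-05). *Ndufv2*, the iron-sulfur partner of *Ndufv1*, had 56.5, 58.7 and 56.5 CPM in *Atgl* ECKO, against 67.3, 64.01 and 67.5 CPM in control LECs (log2 fold change -0.21, SE 0.03, adjusted p = 5.61e-05). Each of these genes was lower in all *Atgl* ECKO libraries than in any control library. *Ndufs1*, the large iron-sulfur subunit, was also lower (68.8, 65.5 and 65.2 CPM in *Atgl* ECKO, 73.3, 70.2 and 73.7 CPM in control, log2 fold change -0.12).

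Among the accessory subunits of complex I, genes of the Ndufb family, which lie in the distal part of the membrane arm, were higher in 6 of 10 cases, with 1 lower and 3 not called, beside 34.2% higher over all genes tested. With the median of each chromosome removed, 4 were higher and 1 lower, a count without a share of all genes beside it. *Ndufb4*, *Ndufb7*, *Ndufb9* and *Ndufb6* lost their calls, *Ndufb8* turned lower and *Ndufb11* and *Ndufb3* were then called higher. Before that step *Ndufb4* led the Ndufb genes with 6.95, 6.78 and 6.44 CPM in *Atgl* ECKO, against 5.20, 4.97 and 5.11 CPM in control LECs (log2 fold change 0.34, SE 0.06, adjusted p = 8.89e-05), followed by *Ndufb2* (0.26), *Ndufb10* (0.24), *Ndufb8* (0.19), *Ndufb7* (0.18) and *Ndufb9* (0.17). *Ndufb6* was the lower member, with 28.3, 27.9 and 28.8 CPM in *Atgl* ECKO, against 31.3, 31.9 and 30.5 CPM in control LECs (log2 fold change -0.14, SE 0.04, adjusted p = 0.00438). *Ndufb11*, *Ndufb3* and *Ndufb5* were not called, at 0.09, 0.05 and -0.03. Of the other 19 accessory genes, 6 were higher, 3 were lower and 10 were not called. *Ndufv3*, an accessory subunit attached to the NADH-oxidizing part, had the lowest log2 fold change in the complex, with 28.2, 28.03 and 27.5 CPM in *Atgl* ECKO, against 33.9, 33.4 and 35.1 CPM in control LECs (-0.28, SE 0.04, adjusted p = 6.22e-06). *Ndufa12* had 28.4, 27.7 and 27.01 CPM in *Atgl* ECKO, against 21.9, 22.5 and 21.8 CPM in control LECs (0.32, SE 0.04, adjusted p = 3.83e-06). *Ndufa4*, which takes its name from complex I but is known as a subunit of complex IV, had 58.6, 57.6 and 54.7 CPM in *Atgl* ECKO, against 49.4, 49.9 and 51.6 CPM in control LECs (0.18, SE 0.04, adjusted p = 0.000432). The calls of *Ndufa13* (0.19) and *Ndufa9* (0.10) stood without each library. Those of *Ndufa3* (0.12) and *Ndufa5* (0.10), both higher, and of *Ndufs4* (-0.10) and *Ndufa8* (-0.10), both lower, did not. *Ndufa3* was no longer called without either of *Atgl* ECKO replicates 1 and 2 or control replicates 1 and 2, and *Ndufa5* was called only when *Atgl* ECKO replicate 3 was the library left out. *Ndufs4* was called only when control replicate 2 was left out, and *Ndufa8* lost its call without *Atgl* ECKO replicate 2 or 3 or control replicate 3. The remaining 10 were not called, namely *Ndufa7* (0.07), *Ndufs5* (-0.01), *Ndufa1* (-0.01), *Ndufa10* (-0.03), *Ndufc1* (-0.04), *Ndufs6* (-0.04), *Ndufa11* (-0.06), *Ndufc2* (-0.07), *Ndufa2* (-0.08) and *Ndufa6* (-0.11, adjusted p = 0.0593 by limma).

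The regions around the start sites of 4 genes are shown because these genes hold the highest log2 fold changes (*Cox6b2* over all members, *Ndufs8* and *Ndufv1* over complex I) and the lowest of a complex I core subunit (*Ndufs3*). Each runs from 250 bases before to 50 bases after the RefSeq start on GRCm38.p6 and reads 5′ to 3′ on the strand of the gene. Capitals mark CCGGAAG or its reverse complement CTTCCGG, 1 form of the sites that ETS factors such as GABP bind. Other forms were not searched, so a window without capitals can still hold one.
Ndufs8, chr19:3912725-3913024, minus strand: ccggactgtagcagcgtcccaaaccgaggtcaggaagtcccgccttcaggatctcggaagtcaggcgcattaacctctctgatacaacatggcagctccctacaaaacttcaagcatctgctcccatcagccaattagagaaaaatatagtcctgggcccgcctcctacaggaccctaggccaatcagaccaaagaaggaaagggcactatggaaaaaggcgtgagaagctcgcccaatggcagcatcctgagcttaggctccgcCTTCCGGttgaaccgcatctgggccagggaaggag
Ndufv1, chr19:4012706-4013005, minus strand: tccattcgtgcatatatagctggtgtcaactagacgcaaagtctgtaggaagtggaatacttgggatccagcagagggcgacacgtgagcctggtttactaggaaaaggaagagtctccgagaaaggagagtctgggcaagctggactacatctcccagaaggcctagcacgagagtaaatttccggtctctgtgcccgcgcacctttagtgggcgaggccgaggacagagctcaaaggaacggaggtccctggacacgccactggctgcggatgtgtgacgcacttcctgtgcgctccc
Ndufs3, chr2:90904672-90904971, minus strand: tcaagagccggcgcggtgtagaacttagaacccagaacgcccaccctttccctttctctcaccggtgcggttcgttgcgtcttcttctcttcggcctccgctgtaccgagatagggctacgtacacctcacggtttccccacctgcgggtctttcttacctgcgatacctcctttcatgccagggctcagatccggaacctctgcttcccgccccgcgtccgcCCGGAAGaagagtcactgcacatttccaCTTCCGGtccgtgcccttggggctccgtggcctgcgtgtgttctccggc
Cox6b2, chr7:4753045-4753344, minus strand: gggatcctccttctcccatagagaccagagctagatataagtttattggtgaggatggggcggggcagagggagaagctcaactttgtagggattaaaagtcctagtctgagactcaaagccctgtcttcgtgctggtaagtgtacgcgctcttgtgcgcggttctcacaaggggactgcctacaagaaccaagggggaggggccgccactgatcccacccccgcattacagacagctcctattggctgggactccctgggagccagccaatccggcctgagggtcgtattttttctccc
*Ndufs8*, which was higher in *Atgl* ECKO, holds this motif at 1 place and *Ndufs3*, which was lower, holds it at 2 places, while *Ndufv1* and *Cox6b2*, which were both higher, do not hold it in these windows. Promoter windows were found for 65 of the 77 members. The ETS motif was in 16 of them (24.6%), against 21.3% of 9220 other tested genes and 9.93% of all 27025 genes with a window. The NRF1 motif CGCATGCG was in 9 (13.8%, against 4.49% of other tested genes and 2.07% of all genes), and the YY1 motif AAGATGGCG was in 7 (10.8%, against 3.75% of other tested genes and 1.64% of all genes). NRF1, GABP and YY1 are known regulators of nuclear genes of the respiratory chain. Both strands were searched for exact matches, a gene with more than 1 window was counted once, and the ETS and YY1 motifs can overlap in the letters AAG. The median log2 fold change was 0.04 for the 9 members with the NRF1 motif and -0.0006 for the 56 without it, -0.03 for the 16 with the ETS motif and 0.04 for the 49 without it, and -0.04 for the 7 with the YY1 motif and 0.01 for the 58 without it. A match describes the letters only and is no binding site.

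**Figure D2:**
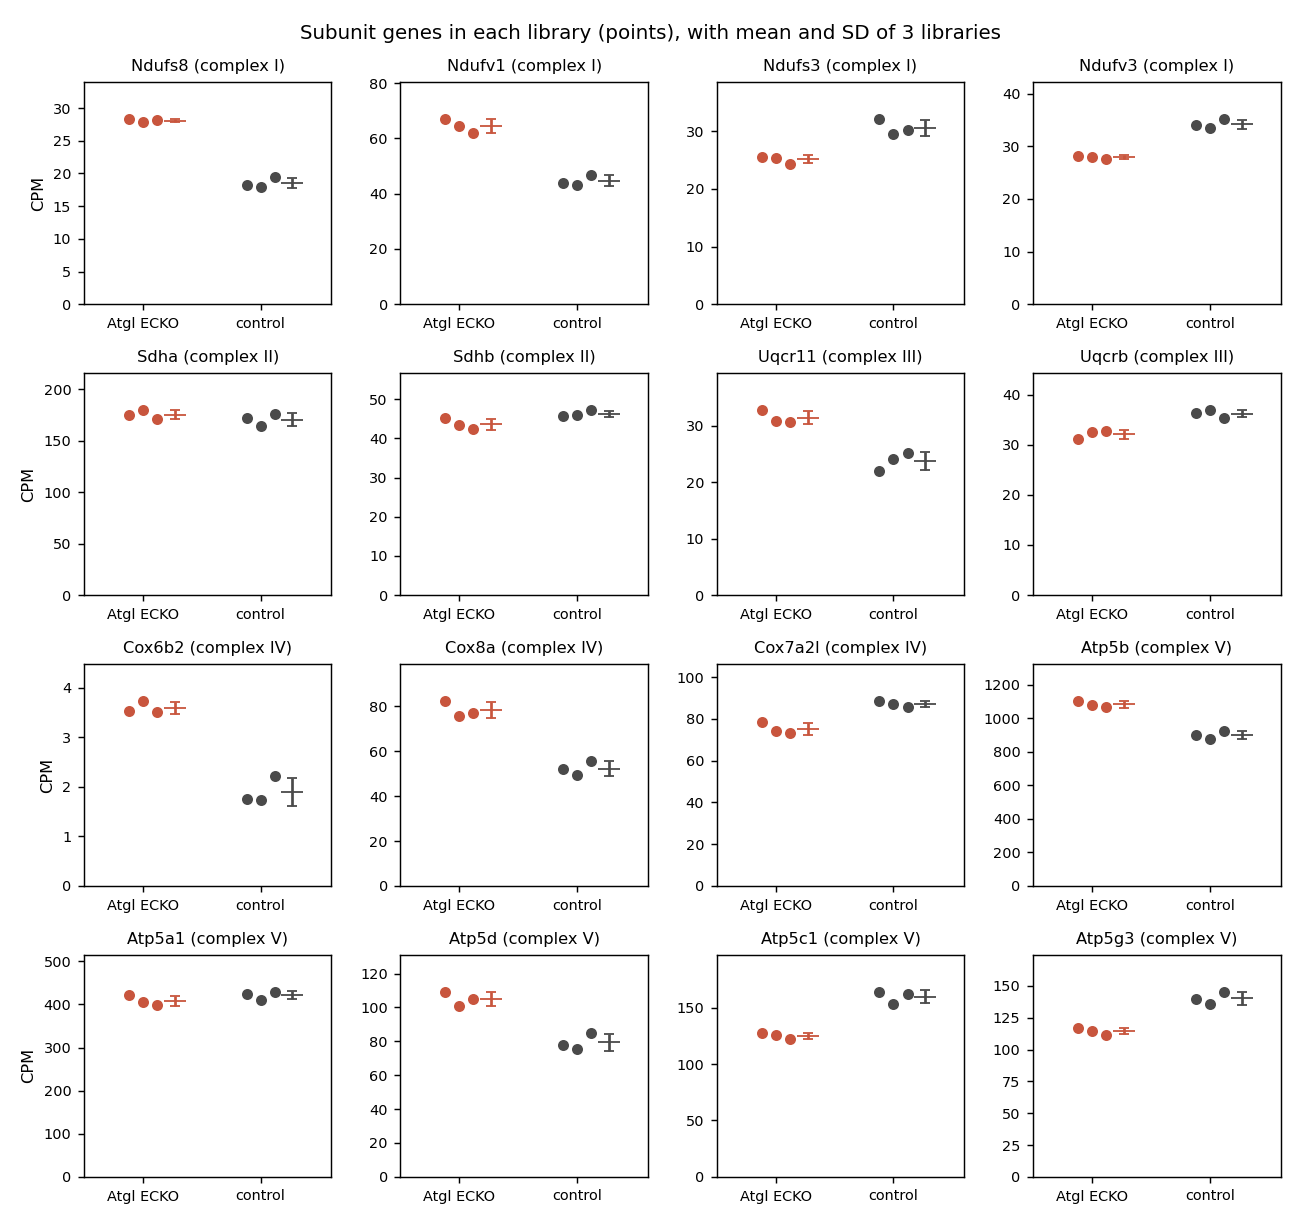
CPM (y axis, from 0) of 16 subunit genes in each *Atgl* ECKO and control library (points), with the mean and SD of 3 libraries beside them. *Ndufs8*, *Ndufv1*, *Uqcr11*, *Cox6b2*, *Cox8a*, *Atp5b* and *Atp5d* were higher in all *Atgl* ECKO libraries, *Ndufs3*, *Ndufv3*, *Sdhb*, *Uqcrb*, *Cox7a2l*, *Atp5c1* and *Atp5g3* were lower in all of them, and the points of *Sdha* and *Atp5a1* overlap.

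The 4 subunits of complex II, the succinate dehydrogenase that also works in the TCA cycle, varied least. *Sdha*, the flavoprotein that oxidizes succinate, had 175, 180 and 171 CPM in *Atgl* ECKO, against 172, 164 and 176 CPM in control LECs, and was not called (log2 fold change 0.04, 95% interval -0.03 to 0.11, adjusted p = 0.308 by limma). *Sdhc* and *Sdhd*, the membrane anchors, were not called either. *Sdhc* had 60.5, 57.4 and 56.1 CPM in *Atgl* ECKO, against 62.5, 58.4 and 62.2 CPM in control LECs (95% interval -0.15 to 0.01), and *Sdhd* had 58.1, 56.0 and 53.8 CPM, against 58.9, 58.2 and 59.1 CPM in control LECs (-0.14 to 0.01). The groups overlapped for *Sdhc* and did not for *Sdhd*. *Sdhb*, the iron-sulfur subunit, passed the test narrowly with 45.1, 43.3 and 42.4 CPM in *Atgl* ECKO, against 45.8, 46.0 and 47.2 CPM in control LECs (log2 fold change -0.08, SE 0.04, adjusted p = 0.0452). Its call was lost without each library except *Atgl* ECKO replicate 1. Without that library *Sdhb*, *Sdhc* and *Sdhd* were all called lower, so the number of lower complex II genes ran from 0 to 3 with the library left out.

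Complex III, which passes electrons from ubiquinol to cytochrome c, had 2 higher, 2 lower and 5 not called genes of 9, with a median log2 fold change of 0.02. None of its catalytic and core genes was called by limma. *Cyc1*, cytochrome c1, had 60.9, 59.1 and 58.4 CPM in *Atgl* ECKO, against 56.7, 57.5 and 58.4 CPM in control LECs (log2 fold change 0.05, 95% interval -0.02 to 0.12). *Uqcrfs1*, the Rieske iron-sulfur protein, had 54.5, 52.3 and 51.0 CPM in *Atgl* ECKO, against 56.3, 51.7 and 56.5 CPM in control LECs (-0.06, 95% interval -0.14 to 0.03). The 2 core proteins *Uqcrc1* (0.05) and *Uqcrc2* (0.01) and the small subunit *Uqcrq* (0.02) overlapped between the groups. The called genes were all small subunits. *Uqcr11* had 32.8, 30.9 and 30.7 CPM in *Atgl* ECKO, against 22.0, 24.1 and 25.1 CPM in control LECs (0.39, SE 0.05, adjusted p = 2.75e-06), with no overlap. *Uqcrb*, a subunit at the quinone-binding region, had 31.1, 32.4 and 32.8 CPM in *Atgl* ECKO, against 36.3, 36.9 and 35.4 CPM in control LECs (-0.17, SE 0.04, adjusted p = 0.000919), also with no overlap. *Uqcr10* (33.3, 34.8 and 32.4 CPM in *Atgl* ECKO, 31.1, 29.7 and 32.8 CPM in control, 0.10, adjusted p = 0.0484) and *Uqcrh* (42.0, 39.5 and 39.2 CPM in *Atgl* ECKO, 43.0, 42.8 and 43.8 CPM in control, -0.10, adjusted p = 0.0233) were called with smaller margins. *Uqcr10* lost its call without *Atgl* ECKO replicate 1 or 2 or control replicate 1 or 2, which left 1 higher gene in the complex, and *Uqcrh* lost its call without *Atgl* ECKO replicate 2 or 3 or control replicate 3, which left 1 lower gene.

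In complex IV, cytochrome c oxidase, 4 of 12 nuclear genes were higher, 4 were lower and 4 were not called, at a median log2 fold change of 0.01. The highest log2 fold change of all members was that of *Cox6b2*, an isoform best known from testis, whose level was low in both genotypes. It had 3.53, 3.73 and 3.50 CPM in *Atgl* ECKO, against 1.75, 1.73 and 2.22 CPM in control LECs (0.67, SE 0.08, adjusted p = 1.98e-06), and each of these values rested on at least 96 reads. Its mean was 188.9% of the control mean, and the added 1 CPM lowers its log2 fold change. *Cox6b1*, the common isoform of the same subunit, had 65.1, 66.7 and 63.3 CPM in *Atgl* ECKO, against 70.6, 69.3 and 73.3 CPM in control LECs (-0.13, SE 0.03, adjusted p = 0.00382). *Cox6b2* accordingly made up 5.14%, 5.29% and 5.24% of the summed CPM of both isoforms in *Atgl* ECKO and 2.42%, 2.43% and 2.94% in control LECs. *Cox8a*, a small subunit of the enzyme, had 82.2, 75.5 and 77.0 CPM in *Atgl* ECKO, against 51.9, 49.2 and 55.5 CPM in control LECs (0.58, SE 0.04, adjusted p = 1.14e-08). *Cox6c* had 75.8, 75.5 and 72.5 CPM in *Atgl* ECKO, against 65.9, 65.4 and 66.03 CPM in control LECs (0.18, SE 0.03, adjusted p = 0.000118). *Cox4i1*, the subunit to which control of the enzyme by ATP is attributed, was also higher, with 156, 150 and 151 CPM in *Atgl* ECKO, against 137, 133 and 139 CPM in control LECs (0.16, SE 0.03, adjusted p = 0.000322). None of these 4 higher genes overlapped between the genotypes.

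The lowest log2 fold change in complex IV was that of *Cox7a2l*, known as a factor that links complexes III and IV into supercomplexes, a role not examined in these cells. It had 78.6, 74.0 and 73.4 CPM in *Atgl* ECKO, against 88.5, 87.0 and 85.6 CPM in control LECs (-0.21, SE 0.03, adjusted p = 5.68e-05). Its paralog *Cox7a2*, a regular subunit, was not called (42.6, 41.9 and 41.1 CPM in *Atgl* ECKO, 41.2, 40.5 and 42.2 CPM in control, 95% interval -0.05 to 0.09). *Cox7a2l* made up 64.3% ± 0.532 of the summed CPM of both genes in *Atgl* ECKO and 67.8% ± 0.756 in control LECs (SD, n = 3 each). *Cox5a* (60.4, 58.3 and 58.2 CPM in *Atgl* ECKO, 66.3, 63.1 and 64.3 CPM in control, -0.13, adjusted p = 0.003 by limma) and *Cox5b* (35.3, 35.4 and 34.2 CPM in *Atgl* ECKO, 36.5, 37.2 and 38.3 CPM in control, -0.09, adjusted p = 0.0343), which are separate subunits, were also lower. The call of *Cox5b* was lost without *Atgl* ECKO replicate 2 or 3 or control replicate 2 or 3. *Cox6a1* (0.04), *Cox7b* (0.01) and *Cox7c* (-0.07) were not called.

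In complex V, 6 of 16 genes were higher, 4 were lower and 6 were not called, with a median log2 fold change of -0.02. Genes of the catalytic F1 head went in both directions. *Atp5d*, the delta subunit of the central stalk, had 109, 101 and 105 CPM in *Atgl* ECKO, against 78.0, 75.5 and 85.0 CPM in control LECs (log2 fold change 0.40, SE 0.04, adjusted p = 5.18e-07). *Atp5c1*, the gamma subunit that turns within the head, had 128, 125 and 122 CPM in *Atgl* ECKO, against 164, 152.9 and 162 CPM in control LECs, the lowest log2 fold change of all members (-0.35, SE 0.03, adjusted p = 1.46e-07). *Atp5b*, the beta subunit, had 1102, 1075 and 1066 CPM in *Atgl* ECKO, against 900, 875 and 921 CPM in control LECs (0.27, SE 0.03, adjusted p = 1.92e-06). These 3 genes did not overlap between the genotypes. *Atp5a1*, the alpha subunit that alternates with beta in the head, was not called, with 421, 407 and 398 CPM in *Atgl* ECKO, against 424, 411 and 429 CPM in control LECs (95% interval -0.11 to 0.02), nor was *Atp5e*, the epsilon subunit (-0.04).

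The 3 genes of the c ring encode the same mature protein, and their members moved apart. *Atp5g3* had 117, 115 and 112 CPM in *Atgl* ECKO, against 140, 136 and 145 CPM in control LECs (log2 fold change -0.29, SE 0.03, adjusted p = 9.25e-07). *Atp5g2*, the member nearest the filter, had 1.72, 2.18 and 2.04 CPM in *Atgl* ECKO, against 1.64, 1.30 and 1.04 CPM in control LECs (0.36, SE 0.10, adjusted p = 0.00425), and its call was lost in a linear model without moderated variances. *Atp5g1* was not called, with 24.7, 24.1 and 22.6 CPM in *Atgl* ECKO, against 22.6, 21.1 and 23.8 CPM in control LECs (0.08, 95% interval -0.03 to 0.18). Summed, the 3 genes had 143, 140.8 and 136 CPM in *Atgl* ECKO, against 164, 158 and 170 CPM in control LECs, and the *Atgl* ECKO mean was 85.3% of the control mean. *Atp5g3* made up 81.6% ± 0.304 of this sum in *Atgl* ECKO and 85.5% ± 0.286 in control LECs (SD, n = 3 each).

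In the peripheral stalk, which holds the head still, *Atp5o* (OSCP) had 89.8, 87.5 and 85.4 CPM in *Atgl* ECKO, against 68.8, 69.7 and 70.7 CPM in control LECs (log2 fold change 0.32, SE 0.03, adjusted p = 2.07e-07). *Atp5j* (subunit F6) had 82.6, 82.2 and 80.0 CPM in *Atgl* ECKO, against 67.2, 65.4 and 66.8 CPM in control LECs (0.29, SE 0.03, adjusted p = 5.12e-07). *Atp5h* (subunit d) was not called at -0.02. *Atp5f1* (subunit b) was lower by a small margin, with 131, 134 and 127 CPM in *Atgl* ECKO, against 137, 137 and 138 CPM in control LECs (-0.07, SE 0.03, adjusted p = 0.0422), and was called only when *Atgl* ECKO replicate 2 was the library left out. Of the small membrane subunits, *Atp5j2* (subunit f) was lower, with 45.1, 44.1 and 45.2 CPM in *Atgl* ECKO, against 45.2, 49.0 and 50.1 CPM in control LECs (-0.10, SE 0.04, adjusted p = 0.0366). Its groups overlapped and its call was lost without each library except control replicate 1. *Atp5k* (-0.08) and *Atp5l* (-0.01) were not called. With *Atp5f1* and *Atp5j2* not called, 2 lower genes remained in complex V, as they did without *Atgl* ECKO replicates 1 or 3 and without control replicates 2 or 3. *Atp5s*, named *Dmac2l* in RefSeq and a coupling factor rather than a subunit, had the highest log2 fold change of the group, with 6.63, 6.92 and 6.48 CPM in *Atgl* ECKO, against 4.74, 4.53 and 4.90 CPM in control LECs (0.42, SE 0.06, adjusted p = 1.24e-05).

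Several genes whose products sit next to each other in a complex therefore stood in another proportion in *Atgl* ECKO LECs. The ratio of *Ndufs8* to *Ndufs3* was 1.11, 1.10 and 1.16 in *Atgl* ECKO, against 0.570, 0.606 and 0.644 in control LECs. That of *Ndufv1* to *Ndufv2* was 1.13 ± 0.0519 in *Atgl* ECKO and 0.674 ± 0.0210 in control LECs, that of *Atp5d* to *Atp5c1* 0.840 ± 0.0300 in *Atgl* ECKO and 0.498 ± 0.0244 in control, and that of *Atp5a1* to *Atp5b* 0.378 ± 0.00471 in *Atgl* ECKO and 0.469 ± 0.00286 in control (SD, n = 3 each). For each of these pairs the libraries of the genotypes did not overlap. Where a gene lay above in all libraries and its partner below, this follows from those genes. *Ndufs8* and *Ndufv1* lie on chromosome 19, *Atp5d* and *Atp5b* on chromosome 10, and *Ndufs3* and *Atp5c1* on chromosome 2. *Ndufv2* lies on chromosome 17 and *Atp5a1* on chromosome 18. Chromosomes 19, 10 and 2 had shifted medians, as described below. The part of chromosome or local shifts in the ratios was not tested. These pairs were chosen after their values were seen, the ratios are of CPM and are not scaled by length, and they are given to compare the genotypes and not the genes.

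**Figure D3:**
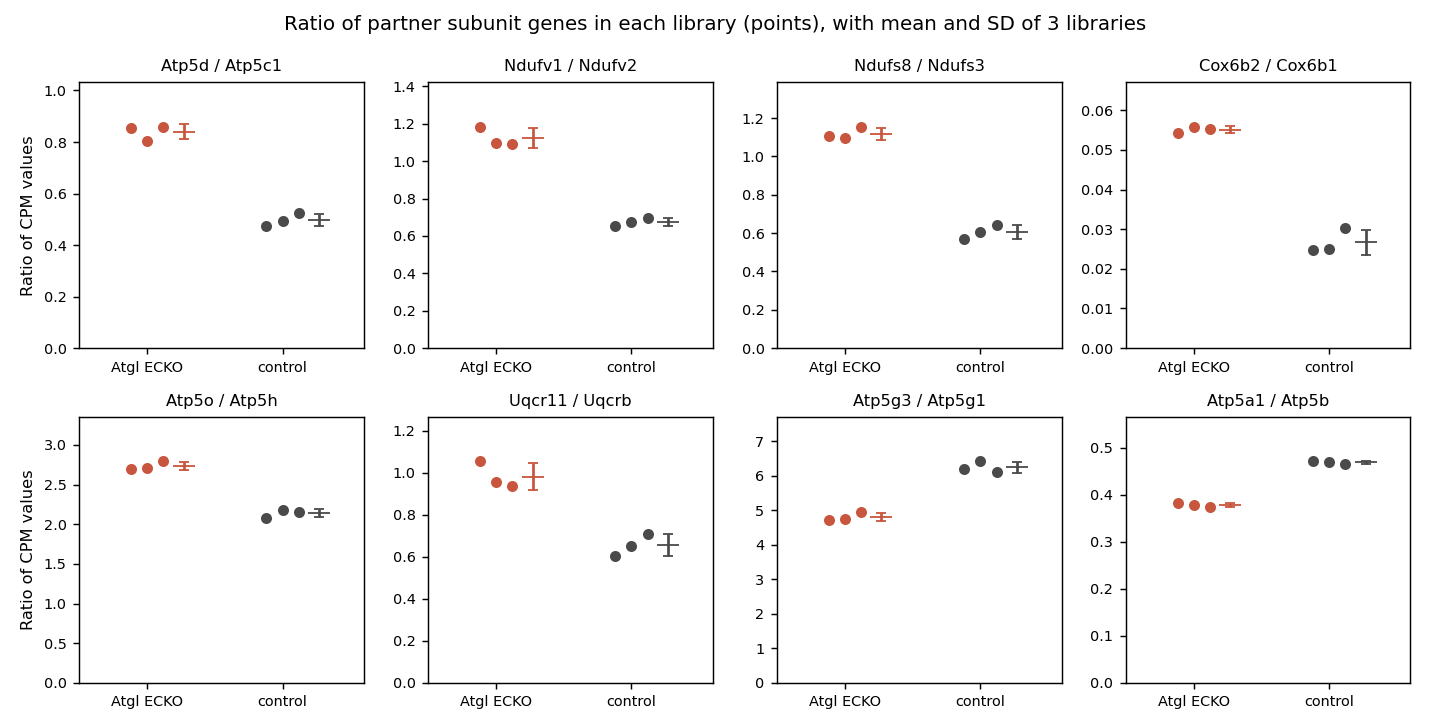
Ratio of the CPM values of 8 pairs of subunit genes (y axis, from 0) in each *Atgl* ECKO and control library (points), with the mean and SD of 3 libraries. The ratio was higher in all *Atgl* ECKO libraries for 6 pairs, such as *Ndufv1* over *Ndufv2* (1.13, against 0.674 in control), and lower for *Atp5g3* over *Atp5g1* and for *Atp5a1* over *Atp5b*. Except for *Cox6b2* and *Cox6b1*, the genes of a pair lie on different chromosomes.

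Members that lie on the same chromosome tended to have like fold changes. On some chromosomes the median log2 fold change lay away from 0, and these are called shifted here. A median need not hold for every part of a chromosome. Over non-member genes that averaged 5 CPM or more, the median log2 fold change was 0.45 on chromosome 14, 0.40 on chromosome 19, 0.36 on chromosome 12, 0.26 on chromosome 16 and 0.19 on chromosome 10, and -0.23 on chromosome 2. The 13 members on chromosomes 10, 12, 16 and 19 (chromosome 14 held 0) were all called higher, with log2 fold changes of 0.19 to 0.58. They include *Ndufs8*, *Ndufv1*, *Ndufb8* and *Cox8a* on chromosome 19, *Ndufs7*, *Ndufa12*, *Uqcr11*, *Atp5b* and *Atp5d* on chromosome 10, *Ndufb4*, *Atp5j* and *Atp5o* on chromosome 16, and *Atp5s* on chromosome 12. Of the 5 members on chromosome 2, 4 were lower (*Atp5c1*, *Atp5g3*, *Ndufs3* and *Ndufa8*) and *Atp5e* was not called. On the other chromosomes, 59 members were divided into 14 higher, 14 lower and 31 not called. Over all genes tested, 34.2% were higher and 36.2% lower. The called share of the other genes on each chromosome is not given here, so these counts do not set the members apart. Across all 77 members the log2 fold change correlated with the median of the other genes of the same chromosome with r = 0.80 and rho = 0.71, a description of genes that share the same 6 libraries, and with the median of the 10 nearest tested genes with r = 0.73. The correlation with the chromosome median was 0.92 over the 16 genes of complex V, 0.82 over the 36 of complex I, 0.82 over the 9 of complex III and 0.61 over the 12 of complex IV, and it was -0.72 over the 4 of complex II, all of which lie on chromosomes with medians below 0. Within chromosome 16 the 10 nearest tested genes had a median of 0.36 for *Ndufb4* and of 0.04 for *Atp5j*. The cause of the chromosome shifts was not tested.

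**Figure D4:**
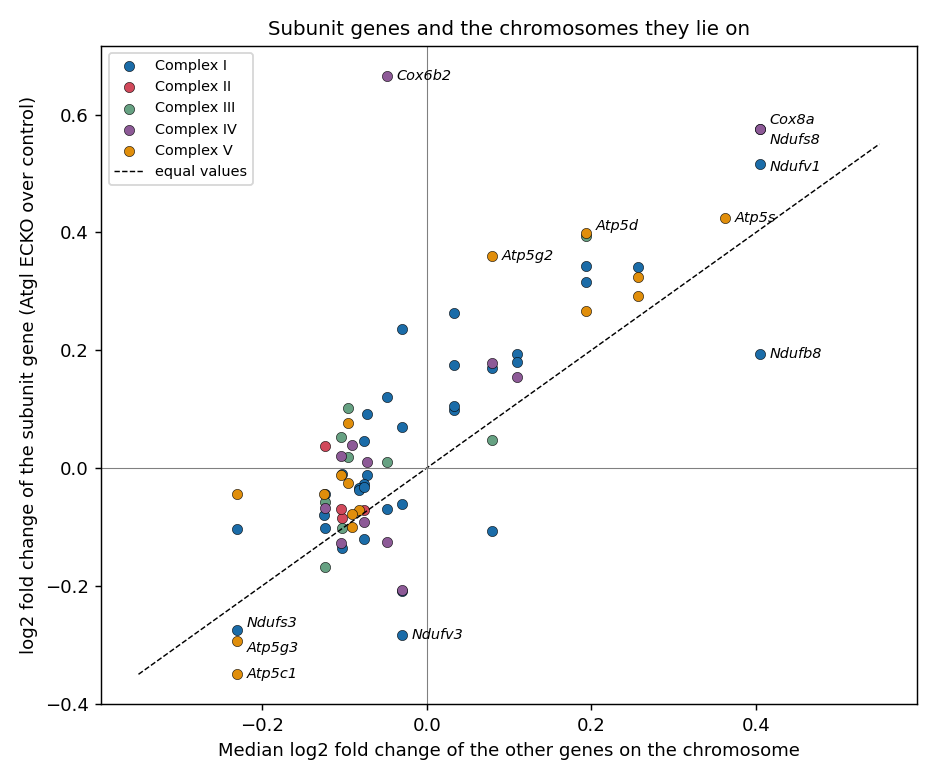
Log2 fold change of each of the 77 subunit genes (y axis) against the median log2 fold change of the other genes on its chromosome (x axis), colored by complex; points on the dashed line changed as much as that median, and *Cox8a* and *Ndufs8* lie on top of each other. The points follow the line (r = 0.80), 59 of 77 lie above it, *Cox6b2* stands far above it at 0.67, and *Ndufb8* and *Ndufv3* lie below it. Of the non-member genes averaging 5 CPM or more, from which the median was taken, as many lie above it as below by definition. The count of members above the line was not tested.

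When the median of its chromosome was taken from every gene before the fit, the SD of the members' log2 fold changes was 0.13 and their median was 0.07, with 27 called higher and 6 lower. The share of all genes called in this fit is not given here, so these counts do not set the members apart. Of the members called before, 15 were still called higher and 4 still lower. *Ndufs8* kept 0.17 and *Ndufv1* kept 0.11, and the 10 nearest tested genes of each had a median of 0.64. *Cox8a* kept 0.17, *Uqcr11* kept 0.20, *Atp5d* kept 0.21 and *Ndufb10* on chromosome 17 came to 0.27. Their 10 nearest tested genes had medians of 0.38 for *Cox8a*, 0.23 for *Uqcr11* and 0.25 for *Atp5d*. For *Ndufb10* that median was 0.24, equal to its own log2 fold change of 0.24 before this step. *Cox6b2*, on chromosome 7, stood at 0.71 and *Ndufv3*, on chromosome 17, at -0.25, with medians of -0.08 and 0.00 over their 10 nearest tested genes. *Ndufb8*, at 0.19 before this step, came to -0.21 and was then called lower. *Atp5b* (0.07), *Atp5j* (0.04), *Atp5o* (0.07), *Atp5s* (0.06), *Ndufb4* (0.08), *Atp5g3* (-0.06), *Ndufs3* (-0.04) and *Cox4i1* (0.05) were no longer called. For *Atp5b* and *Atp5j*, at 0.27 and 0.29 before this step, the 10 nearest tested genes had medians of 0.07 and 0.04. Those medians were 0.24 for *Atp5o*, 0.36 for *Atp5s*, 0.36 for *Ndufb4*, -0.21 for *Atp5g3*, -0.13 for *Ndufs3* and 0.11 for *Cox4i1*. *Sdha* (0.16), *Uqcrc1* (0.16), *Atp5g1* (0.17) and *Ndufb11* (0.16) were called higher.

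Some members have copies or relatives that can draw reads from them. A value made of whole reads is a multiple of the value of 1 read, within a tolerance of 0.05 reads. Of 61 members low enough to be checked in all 6 libraries, 30 had whole reads in every library, among them *Ndufs8*, *Ndufv3*, *Uqcr11*, *Cox6b2* and *Atp5s*, and 12 had them in none, among them *Ndufb4*, *Ndufa12*, *Cox6c*, *Uqcrb*, *Uqcrh*, *Atp5g1* and *Atp5g2*. The quantification used can divide a read among similar sequences, and values that are not whole are given as less certain.

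Genes that assemble the complexes without being part of them also went in both directions. Of 62 assembly factors tested, 21 were higher, 10 were lower and 31 were not called, a called share of 50% beside 70.5% of all genes, and their median log2 fold change was 0.02. Those of complex V were 4 higher, 0 lower and 1 not called of 5, with *Tmem70*, which helps build the c ring into the enzyme, at 0.30. Those of complex IV were 8 higher, 3 lower and 16 not called of 27, led by *Oxa1l*, an insertase of the inner membrane (39.4 ± 1.04 CPM in *Atgl* ECKO and 25.4 ± 1.47 CPM in control, SD, n = 3 each, log2 fold change 0.62), and by *Cox15*, which makes heme A (0.42). Of 19 for complex I, 4 were higher, 5 lower and 10 not called, with *Tmem186* at 0.37, *Nubpl*, which delivers iron-sulfur clusters, at 0.41 and *Aifm1* at -0.25. Of 7 for complex III, 3 were higher, 1 lower and 3 not called, with *Uqcc3* at 0.48 and *Ttc19*, which clears fragments of the Rieske protein, at -0.52. Of 4 for complex II, *Sdhaf2*, which adds the flavin to *Sdha* protein, was at 0.31, *Sdhaf3* at 0.21, *Sdhaf1* at -0.19 and *Sdhaf4*, not called, at -0.01. *Oxa1l* lies on chromosome 14, *Cox15*, *Uqcc3* and *Sdhaf2* on chromosome 19, *Nubpl* on chromosome 12 and *Tmem186* on chromosome 16, which are among the shifted chromosomes.

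Subunits and partners that the family names miss were also measured. *2010107E04Rik* (0.41, chromosome 12) and *Usmg5* (0.32, chromosome 19), both small proteins of ATP synthase, were higher, *Atpif1*, the inhibitor of the enzyme's reverse reaction, was lower with 46.4, 48.2 and 45.4 CPM in *Atgl* ECKO, against 55.9, 56.3 and 56.4 CPM in control LECs (-0.26, SE 0.03, adjusted p = 4.92e-06), *Cycs*, cytochrome c, was higher at 0.09 and *Ndufab1* was not called at 0.00. Of 7 genes that bring electrons to ubiquinone by other routes, 2 were higher and 3 lower. *Prodh*, proline dehydrogenase, had 8.72, 8.12 and 8.56 CPM in *Atgl* ECKO, against 3.75, 3.54 and 4.83 CPM in control LECs (0.92, SE 0.08, adjusted p = 6.9e-08), a higher log2 fold change than any member. *Etfa*, which takes electrons from fatty acid oxidation, was lower (-0.32), and *Dhodh*, of pyrimidine synthesis, was higher (0.26). Of 12 genes of coenzyme Q synthesis, 4 were higher, 1 was lower and 7 were not called, led by *Coq6* (0.61), *Coq10a* (0.48) and *Pdss2* (0.36). *Coq6* lies on chromosome 12, *Coq10a* and *Pdss2* on chromosome 10 and *Prodh* on chromosome 16, which are among the shifted chromosomes. *Dhodh* (chromosome 8) and *Etfa* (chromosome 9) do not lie on these.

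Of 19 genes of mitochondrial biogenesis, 8 were higher, 3 lower and 8 not called, with *Pprc1*, a coactivator of the PGC-1 family, at 0.40, *Twnk*, the helicase of mitochondrial DNA, at 0.53 and *Yy1* at 0.36. Of 13 genes of mitochondrial content, 7 were higher, 1 lower and 5 not called, with *Vdac2*, a pore of the outer membrane, at 311 ± 1.83 CPM in *Atgl* ECKO and 203 ± 4.48 CPM in control (SD, n = 3 each, 0.62), *Tomm20* at 0.47 and *Timm23* at 0.58. Of 13 genes of the TCA cycle, 6 were higher, 3 lower and 4 not called, with *Mdh2*, malate dehydrogenase, at -0.40, *Dlst* at 0.30 and *Dld* at 0.32. Of 5 carriers of nucleotides and phosphate, 3 were higher, among them *Slc25a3*, the phosphate carrier (0.23) and *Slc25a5* (0.09), and 1 was lower (*Slc25a24*, -0.24). Of 10 genes of the cristae junctions, 4 were higher, 4 lower and 2 not called, with *Opa1*, which shapes cristae, at 0.28, *Dnajc11* at 0.24 and *Samm50* at 0.11. *Pprc1* and *Twnk* lie on chromosome 19, *Yy1*, *Dlst* and *Dld* on chromosome 12, and *Vdac2* and *Timm23* on chromosome 14. *Slc25a3* lies on chromosome 10 and *Opa1* on chromosome 16, and all of these chromosomes are among the shifted ones. *Tomm20*, *Mdh2*, *Slc25a5*, *Slc25a24*, *Dnajc11* and *Samm50* lie on other chromosomes. The called shares ran from 40.7% for complex IV assembly to 80% for several lists of 5 to 10 genes, around the 70.5% of all genes, and none of these counts is a test of its list.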

How the data were processed

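RNA of untreated immortalized LECs was sequenced (3 *Atgl* ECKO and 3 control libraries). The study describes total RNA-Seq while the labels name a small RNA kit, so the kit is uncertain. Per the labels and methods, STAR was the aligner and Partek the quantification software, and the authors deposited normalized values in CPM, with an offset of 0.0001 CPM in every value. A human build (hg19) is named, although the symbols are those of mouse, and the sources used here give no versions. The authors also deposited z-scores, not used here. Of 20430 lines, 21 carry a date in place of a symbol and were left out, as was 1 stray cell. Under 71% of values below 5000 reads were whole multiples of 1 read, so no test on counts was run. Genes averaging 1 CPM or more were tested on log2(CPM + 1) with limma 3.58.1 (R 4.3.3, eBayes with trend, 4 residual and 10.9 prior degrees of freedom), two-sided, with Benjamini-Hochberg adjustment over 12837 genes. The procedure was tested on simulated data. Chromosomes came from RefSeq and GENCODE M21 by symbol (99.2% of tested genes), promoter windows from RefSeq on GRCm38.p6. Values in every library are given for the members with the 3 highest and 3 lowest called log2 fold changes in each complex, those past 0.5, complex II and genes of isoform families (*Cox4i1* and *Ndufa4* among them), while most members not called are given by their log2 fold change alone. The values of 1 member are not reported here. From each list at most 3 genes with the smallest adjusted p are named. *Cdh5*, *Pecam1*, *Kdr*, *Erg*, *Nos3*, *Ndufb4*, *Ndufb6*, *Ndufa12*, *Ndufs1*, *Cox5b*, *Atp5b*, *Atp5f1*, *Atp5j* and *Atp5o*, the fourth gene of complex II assembly and the subunits that the family names miss are given beyond this rule, chosen after their values were seen. Members, lists and alternatives were chosen with earlier results of these data known. The alternatives were pseudocounts of 0.1 and 3 CPM, quantile normalization, rescaling by median ratios, no filter or one at 5 CPM, no trend, no moderation, a replicate block, leaving out each library, removal of chromosome medians, and a log2 fold change of at least 1 at an unadjusted p under 0.05.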

Additional observations from a re-analysis of the deposited data

How the results depend on the processing

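No member changed its call with pseudocounts of 0.1 or 3 CPM or, for the 75 members left, when only genes averaging 5 CPM were tested. With each library left out in turn, no member changed direction while called. The counts then ran from 24 to 29 higher and 11 to 18 lower members, from 0 to 3 lower for complex II, from 1 to 2 higher and 1 to 3 lower for complex III, and from 2 to 3 lower for complex V. Without a filter complex II had 0 lower and complex III 1 higher gene. Quantile normalization gave 0 lower for complex II and a median of 0.053 for complex III. Without trend there were 0 lower for complex II, 1 higher for complex III and 2 lower for complex V, and without moderation 0 lower for complex II and 1 higher and 1 lower for complex III. Of all genes, 286 rose and 349 fell by a log2 fold change of 1 with p under 0.05 before adjustment, with 0 members in either direction in every complex (limma; 45 of the members had an adjusted p under 0.05). Same-numbered libraries did not deviate together (r = 0.09, 0.09 and -0.15 for numbers 1, 2 and 3). With 3 libraries a genotype, this cannot show whether same-numbered libraries shared a culture or batch. With the replicate number as a block, 25 members were higher and 14 lower, with 0 lower in complex II and 1 higher in complex III, and 6 calls were lost. *Atgl* ECKO replicate 2 alone correlated best with its own number. After removal of chromosome medians 6 members were lower, with 4 in complex I, 0 in complexes II and III, and 1 each in complexes IV and V, while 1 was higher in complex II and 4 in complex III. These counts have no share of all genes from that fit beside them. The medians were then 0.067 for all members, 0.071 for complex I, 0.026 for II, 0.066 for III, 0.0686 for IV and 0.0687 for V. The sign changed for 24 of 77 members, of which 16 were called neither before nor after. The others were *Atp5a1* (0.0799), *Atp5e* (0.19), *Atp5f1* (0.011), *Ndufa8* (0.13), *Ndufb8* (-0.21), *Ndufs4* (0.021), *Sdhb* (0.018) and *Uqcrh* (0.00125). The cause was not tested. A test on counts was not run, since whole reads could not be recovered. Precision is limited by 3 libraries a genotype, and for *Atp5g2* and *Cox6b2* by depth.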
